A study of Mus musculus with 36 samples.

Results

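The transcription factor genes Klf4, Klf5, Klf6, Ets2, Stat3, Cebpb, Elf3 and Grhl3, which are known from epidermal stress, repair and barrier programmes, were followed through 2 consecutive wounds in the progeny of hair follicle stem cells. The 8 genes were taken by name from count tables of 23903 genes listed in either of 2 labelled populations, and all 8 were listed in both tables. Adult mice carried Rosa26-fl/STOP/fl-tdTomato together with either Lrig1-EGFP-ires-CreERT2 (Lrig1 GL) or Lgr5-EGFP-ires-CreERT2 (Lgr5 GL), so the Lrig1 or the Lgr5 locus decided which cells and which of their descendants turned red. All groups, the unwounded one included, had received 1 topical dose of hydroxytamoxifen at 6 to 8 weeks of age. A full-thickness wound of 2 mm was made by punch 1 week later, at 7 to 9 weeks of age, and a second one 8 weeks after the first. Libraries were made from 150 sorted tdTomato+ cells of a tail zone covering the wound bed as well as the follicles beyond it, in homeostasis (0w), at 1, 2, 4 and 8 weeks after the first wound (1w, 2w, 4w and 8w pw1) and at 1 week after the second wound (1w pw2), with 3 libraries at each of the 6 time points in each population, 36 in all. The time course was made with 3 mice per group.

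As background, KLF factors are zinc finger proteins that bind GC-rich and CACCC boxes. Klf5 is mostly found in proliferating basal keratinocytes, Klf4 in the differentiating layers, where it is needed for the skin barrier, and Klf6 is an early response gene of many injured tissues. Ets2 and Elf3 belong to the ETS family, Ets2 being a target of Ras and MAP kinase signalling and Elf3 an epithelial factor of late differentiation. Stat3 is switched on by phosphorylation downstream of the IL-6 family receptors and JAK kinases, and skin lacking it closes wounds slowly. Cebpb, a leucine zipper factor, takes part in commitment of keratinocytes to differentiation, and Grhl3, a Grainyhead factor, drives barrier formation and wound closure in the embryo. For most of these proteins activity depends on phosphorylation or on partners, which RNA levels do not show.

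Promoter sequence was available in RefSeq (GRCm38.p6) for 7 of the 8 genes, Klf5 being the one without an entry. The upstream windows of 2 genes, which hold no annotated exon, are shown because Klf4 and Stat3 represent the GC-rich and the mixed type of promoter among the 8, with 250 bases before the start site written 5′ to 3′ on the strand of the gene and with each GC box (GGGCGG or its reverse complement) in capitals.
Klf4: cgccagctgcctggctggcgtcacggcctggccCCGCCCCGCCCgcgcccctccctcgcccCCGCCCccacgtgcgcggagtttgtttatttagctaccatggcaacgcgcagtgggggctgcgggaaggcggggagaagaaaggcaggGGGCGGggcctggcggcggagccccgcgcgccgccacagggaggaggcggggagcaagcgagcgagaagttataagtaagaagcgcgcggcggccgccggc
Stat3: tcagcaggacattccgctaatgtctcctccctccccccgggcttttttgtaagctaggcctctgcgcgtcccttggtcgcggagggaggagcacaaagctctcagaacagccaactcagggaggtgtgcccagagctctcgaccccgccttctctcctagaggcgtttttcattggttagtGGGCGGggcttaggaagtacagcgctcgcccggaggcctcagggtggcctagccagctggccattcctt
The Klf4 window, at chr4:55532476-55532725 on the minus strand, had 74.0% G and C and held 4 GC boxes. The Stat3 window, at chr11:100939541-100939790 on the minus strand, had 60.8% G and C and held 1 box. Over the full windows of 250 bases before to 50 after the start, searched on both strands, 6 of the 7 genes held a GC box, compared with 35.7% of 32851 promoters. The CACCC box, the other KLF motif, was found in 5 of the 7 genes and in 57.5% of all promoters. The STAT motif TTCNNNGAA was found in none of the 7 (8.30% of all promoters), nor was the AP-1 motif TGANTCA (7.81%) or the ETS core CGGAAG (16.9%). The C/EBP motif TTGNNNCAA was present in Klf6 and Grhl3 (5.82% of all promoters). The letters TATAAA were present in Cebpb alone (13.6%), where they began 21 bases after the start site and not before it. A match is a string of letters and not a bound site.

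The libraries held between 765252 and 3365666 counts in Lrig1 GL and between 1297798 and 6960537 in Lgr5 GL. Levels are given as CPM, the counts per 1000000 of the trimmed-mean scaled library size within each population. In Lgr5 GL a single gene, Gm12415, took between 12% and 52.1% of the counts, so levels were compared between populations only on a common scale over all 36 libraries. Keratinocyte markers were detected in every library (6 of 6), whereas Trac, at up to 3.18 CPM in Lrig1 GL, was the only T cell marker with a row in either table, neither of which lists a gene that is at 0 throughout. Summed Langerhans cell and macrophage markers were highest in the 2w pw1 libraries of Lrig1 GL, at 12 to 28.2 CPM through Cd74 and H2-Aa, while Lyz2 and Cd207 had no row in either table. The leukocyte marker Ptprc reached 16.4 CPM in Lrig1 GL and 33.3 CPM in Lgr5 GL, and summed fibroblast markers stood at 2.52 to 89.6 CPM and 54.9 to 378 CPM. Elf3 did not pass the filter on low counts in Lrig1 GL, so 7 of the 8 genes were tested there, among 14306 genes, and all 8 among 18025 in Lgr5 GL.

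Few of the 8 factors differed over time by the tests run. Taking the whole time course together, none was called as changed at an adjusted p under 0.05 with a more than 2-fold change at some time point (edgeR's quasi-likelihood test, Benjamini-Hochberg adjustment), in either population, where 1.63% of genes tested were called in Lrig1 GL and 1.13% in Lgr5 GL. At an unadjusted p under 0.05 there were 2 of 7 in Lrig1 GL, where 20.5% of all genes passed that limit, namely Ets2 (adjusted p = 0.13, edgeR) and Klf4 (adjusted p = 0.24, edgeR). There was 1 of 8 in Lgr5 GL, where 16.9% did, namely Klf4 (adjusted p = 0.10, edgeR). A likelihood ratio test and DESeq2 each called 1 gene per population, Ets2 in Lrig1 GL (adjusted p of 0.029 and 0.028) and Klf4 in Lgr5 GL (0.0048 with both tools). With limma-voom the count was 0 in Lrig1 GL and 1, Klf4, in Lgr5 GL (adjusted p of 0.036). All time points were set against the same 0w libraries of their population, so the comparisons below are not independent of each other. No unwounded group of matching age was among the libraries. Time since wounding, age and time since labelling therefore rise together and cannot be told apart in the comparisons with 0w.

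Ets2 (ENSMUSG00000022895.16, chr16:95702075-95721051, plus strand, GRCm38) fell in the Lrig1 lineage at 8w pw1 and gave no call in the Lgr5 lineage. In Lrig1 GL the 3 libraries of 0w stood at 173, 340 and 347 CPM (mean 287 ± 98.0, SD, n = 3), those of 1w pw1 at 189, 213 and 163 CPM, and those of 2w pw1 at 225, 211 and 126 CPM. Values then came to 114, 200 and 187 CPM at 4w pw1 and to 83.4, 81.8 and 150 CPM at 8w pw1 (mean 105 ± 39.0). All 3 libraries of 8w pw1 lay below all 3 of 0w, as was so for 12.8% of all genes. At 8w pw1 Ets2 fell by 1.45 on the log2 scale (SE 0.36, 95% interval -2.21 to -0.68, adjusted p = 0.043, edgeR's quasi-likelihood test with Benjamini-Hochberg adjustment). It was the single call among the 7 genes at this time point, where 2.82% of all genes were called and 1.31% were called as lower. In a bulk library a fall in RNA per cell cannot be told apart from a fall in the share of cells that hold it. The call was close to the threshold, remained in 4 of the 18 edgeR fits that each left out 1 library, with values of -1.79 to -1.29, and was lost in each fit without a library of 0w, 8w pw1 or 1w pw2. It was made in 7 of 14 other settings. These 7 include the main fit without the rule on fold change, which had to repeat the call. They also include the settings without mitochondrial genes and with a mean of at least 5 CPM, which were not planned. The mitochondrial share was 10.9% to 14.4% of counts in the 8w pw1 libraries and 3.15% to 5.38% in those of 0w, and the summed keratinocyte markers were 11690 to 17389 CPM compared with 21411 to 25349 CPM. Leaving the rows of mitochondrial genes out, a setting added after seeing the data, kept the call at -1.47 (adjusted p = 0.040, edgeR). That setting removes rows and does not adjust for differences between libraries. The part of the mitochondrial and marker differences in the Ets2 values was not tested.

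Ets2 values were also low in Lrig1 GL after the second wound. The libraries of 1w pw2 held 118, 101 and 158 CPM (mean 126 ± 29.3), all below those of 0w, as in 10.4% of genes. The difference from 0w was -1.19 (SE 0.36, adjusted p = 0.10, edgeR), which missed the threshold, at a time when 1.23% of genes were called, although the likelihood ratio test and DESeq2 called it. The differences from 0w at 1w, 2w and 4w pw1 were -0.61, -0.62 and -0.78 and also missed it, and the shares of all genes called at these times were 0.217%, 0% and 0.0419%. At an unadjusted p under 0.05 there were no factors at 1w and 2w pw1, Klf5 and Ets2 at 4w pw1 and Ets2 alone at 8w pw1 and 1w pw2, beside 11%, 10.5%, 8.37%, 22.9% and 18.5% of all genes at these 5 times, and besides Ets2 the 3 other tools called none. In Lgr5 GL Ets2 stood at 79.2, 93.4 and 70.7 CPM in 0w (mean 81.1 ± 11.5) and at 71.1, 72.6 and 96.4 CPM in 8w pw1 (80.1 ± 14.2). Those groups overlapped, and the difference was -0.02 on the log2 scale with a 95% interval of -0.66 to 0.63. Group means of Ets2 in Lgr5 GL lay between 66.7 and 91.5 CPM over all 6 time points.

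**Figure D1:**
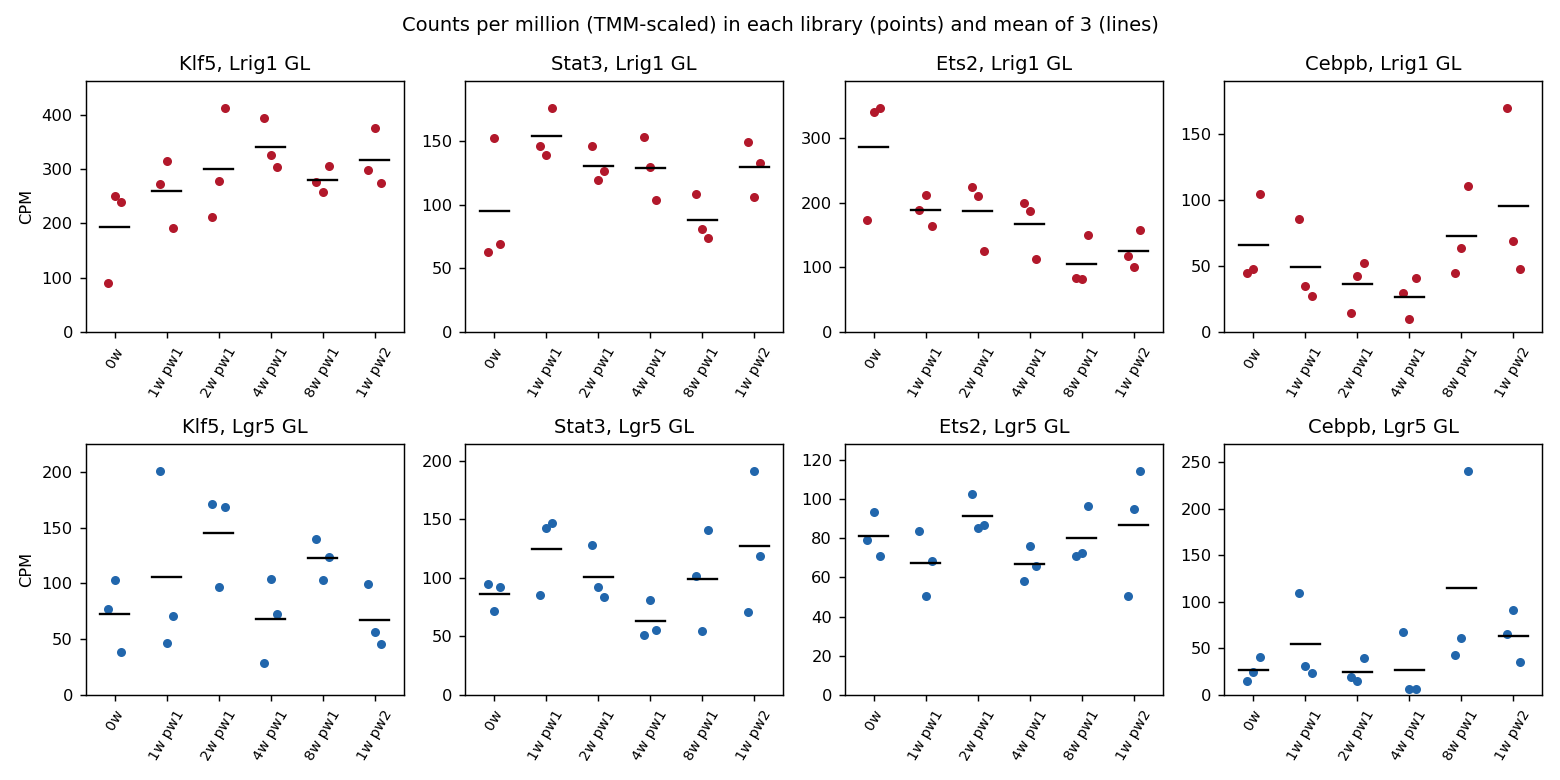
CPM (vertical axis) of Klf5, Stat3, Ets2 and Cebpb in each library (points) by time point (horizontal axis) in both labelled populations, with the group mean as a line and a scale of its own in each panel. Ets2 in Lrig1 GL goes from a mean of 287 CPM at 0w to 105 CPM at 8w pw1 and 126 CPM at 1w pw2, whereas in Lgr5 GL its means lie between 66.7 and 91.5 CPM.

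Klf5 (ENSMUSG00000005148.8, chr14:99298691-99315036, plus strand), the basal KLF factor, had higher means after injury in Lrig1 GL than before it, but no time point passed the test. The libraries of 0w spread from 91.4 to 240 and 250 CPM (mean 194 ± 88.8). At 4w pw1 they held 304, 393 and 325 CPM (341 ± 46.5), at 8w pw1 276, 257 and 306 CPM (280 ± 24.4), and at 1w pw2 298, 375 and 274 CPM (316 ± 52.9). In these 3 groups every library lay above every 0w library, as did 5.5%, 14.8% and 13.9% of all genes tested at the respective times. The log2 differences from 0w were 0.81 at 4w pw1 (adjusted p = 0.55, edgeR), 0.53 at 8w pw1 and 0.71 at 1w pw2 (adjusted p = 0.29, edgeR). The last value was 0.37 without replicate 1 of 0w and 0.01 with 2 surrogate variables. In Lgr5 GL, Klf5 stood at 76.9, 103 and 38.9 CPM in 0w, at 172, 97.1 and 168 CPM in 2w pw1, at 140, 103 and 124 CPM in 8w pw1 and at 99.7, 56.3 and 45.9 CPM in 1w pw2. The lowest of 8w pw1 was level with the highest of 0w to 3 digits, and all of 8w pw1 lay above all of 1w pw2, where 6.32% of genes were likewise lower without overlap at the later time. No Lgr5 difference of Klf5 passed the test, the furthest from 0 being 1.00 at 2w pw1.

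Stat3 (ENSMUSG00000004040.16, chr11:100885098-100939540, minus strand) was higher in the 2 groups taken 1 week after a wound than at rest in Lrig1 GL by a test of the gene alone, and this was not called across all genes. Its values there were 63.1, 152 and 69.2 CPM in 0w (94.9 ± 49.8) and 109, 81.2 and 74.0 CPM in 8w pw1 (87.9 ± 18.2). At 1w pw1 they were 146, 139 and 176 CPM (154 ± 19.5) and at 1w pw2 149, 106 and 133 CPM (129 ± 21.6). The groups in between were as high as 1w pw2, with 146, 119 and 126 CPM at 2w pw1 (130 ± 13.8) and 104, 153 and 130 CPM at 4w pw1 (129 ± 24.9), so the higher values were not particular to the first week after a wound. All 6 libraries taken 1 week after injury lay above the median of the 6 at rest (0w and 8w pw1), while 1 library of 0w, at 152 CPM, reached as high as they did. The log2 difference between injured and resting libraries was 0.63 (SE 0.24, 95% interval 0.13 to 1.13, adjusted p = 0.36, edgeR), a size below the more than 2-fold change that a call requires, and a two-sided exact permutation test of the 6 against 6 gave p = 0.0238, unadjusted over 15 such tests of the 8 factors and with 0.00216 as the smallest p it allows. In Lgr5 GL, Stat3 stood at 95.1, 72.0 and 92.0 CPM in 0w, 85.8, 143 and 147 CPM in 1w pw1, 102, 54.3 and 141 CPM in 8w pw1 and 70.9, 192 and 119 CPM in 1w pw2. The groups overlapped, 4 of 6 injured libraries were above the resting median, and the difference was 0.45 (95% interval -0.12 to 1.02, exact permutation p = 0.169). Summed neutrophil markers moved at the same times in Lrig1 GL, with 0 to 0.812 CPM in 0w, 361 to 2376 CPM in 1w pw1, 0.611 to 316 CPM in 8w pw1 and 812 to 982 CPM in 1w pw2. The sum came from 2 of 3 markers, S100a8 and S100a9, which injured keratinocytes also make, while Csf3r had no row, and the part of this in the Stat3 values was not tested. None of the 8 factors was called between injured and resting libraries in either population, at 0.503% of genes called in Lrig1 GL and 0.194% in Lgr5 GL. Stat3 in Lrig1 GL was the single one at an unadjusted p under 0.05, which 10.1% of all genes passed there and 12.8% in Lgr5 GL, and the likelihood ratio test, DESeq2 and limma-voom called none.

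Calls in the STAT3 pathway around it were of single genes. Among 12 receptor chains and kinases, 11 were tested, and Jak1, a kinase that phosphorylates Stat3, rose in Lrig1 GL. It was higher than in 0w by 1.54 at 8w pw1 and 1.52 at 1w pw2 on the log2 scale (adjusted p of 0.034 and 0.047, edgeR). Jak1 was the single call of the list at each time, beside 2.82% and 1.23% of all genes. Its level went from 95.9 ± 44.9 CPM in 0w to 279 ± 69.4 CPM and 275 ± 6.0 CPM, while in Lgr5 GL its differences at those times were -0.34 and -0.59 and were not called. Stat6, among 6 STAT relatives of which 5 were tested, rose in Lrig1 GL at 8w pw1 from 56.2 ± 10.6 to 142 ± 27.6 CPM (log2 difference 1.34, adjusted p = 0.034, edgeR), 1 call of 5. The 7 inhibitors, all tested, gave no call in either population. Socs3, the feedback inhibitor that STAT3 itself induces, stood at 22.6 ± 3.2 CPM in 0w and 129 ± 74.8 CPM in 1w pw1 of Lrig1 GL, with an injured against resting difference of 1.87 (adjusted p = 0.098, edgeR). Of 10 known STAT3 target genes, all tested, Ccnd1, which encodes cyclin D1, rose in Lgr5 GL from 34.3 ± 5.8 CPM in 0w to 115 ± 18.7 CPM in 4w pw1 (1.74, adjusted p = 0.032, edgeR), where 0.155% of all genes were called, and was higher by 1.13 in injured than in resting libraries (adjusted p = 0.041, edgeR), beside 0.194% of all genes. Stat3 itself had its lowest group mean in Lgr5 GL at 4w pw1, with 62.7 ± 15.9 CPM. Its log2 difference from 0w there was -0.45 and was not called. Whether Ccnd1 followed Stat3 was not tested. In Lrig1 GL the single target called against 0w was Hif1a, at 1w pw2, which was named after its values were seen. Across the time course 5 of 10 targets in Lrig1 GL and 7 of 10 in Lgr5 GL passed an unadjusted p under 0.05 (edgeR). The shares of all genes passing it were 20.5% and 16.9%. In each population 2 of 11 receptor chains and kinases, 1 of 7 inhibitors and 1 of 5 STAT relatives passed.

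Cebpb (ENSMUSG00000056501.3, chr2:167688915-167690418, plus strand) varied more between libraries of a group than between most groups. In Lrig1 GL it stood at 44.7, 47.9 and 105 CPM in 0w (65.9 ± 34.0), at 41.3, 29.4 and 10.3 CPM in 4w pw1 (27.0 ± 15.6) and at 170, 68.8 and 48.0 CPM in 1w pw2 (95.6 ± 65.2). The 4w pw1 libraries lay below those of 0w, as did 5.14% of genes, with a difference of -1.27 that was not called. In Lgr5 GL its values were 15.4, 24.3 and 41.0 CPM in 0w (26.9 ± 13) and 42.4, 61.2 and 241 CPM in 8w pw1 (115 ± 110). All 3 libraries of 8w pw1 lay above those of 0w, and 1 of them stood far above the other two. The difference was 2.10 (SE 0.85, 95% interval 0.31 to 3.90, adjusted p = 0.77, edgeR) and came to 0.95 without the library at 241 CPM. Of the 1504 exonic bases of Cebpb, 312 are shared with exons of Tmem189 on the other strand, and whether the counting used strand is not given in the sources used here.

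Klf4 (ENSMUSG00000003032.8, chr4:55527143-55532466, minus strand), the KLF factor of differentiating layers, was highest at 8w pw1 and 1w pw2 in both lineages by group mean. In Lrig1 GL it stood at 93.4, 386 and 347 CPM in 0w (275 ± 159), 268, 224 and 164 CPM in 1w pw1 (218 ± 52.1), 618, 321 and 485 CPM in 8w pw1 (474 ± 149) and 316, 633 and 654 CPM in 1w pw2 (535 ± 190). The groups overlapped with 0w, and the differences of 0.79 and 0.96 from it were not called. In Lgr5 GL it stood at 111, 139 and 78.6 CPM in 0w (109 ± 30.0), 94.3, 85.9 and 56.5 CPM in 4w pw1 (78.9 ± 19.9), 180, 229 and 289 CPM in 8w pw1 (233 ± 54.5) and 138, 182 and 146 CPM in 1w pw2 (155 ± 23.6). Every library of 8w pw1 lay above every one of 0w. The difference at 8w pw1 was 1.09 (SE 0.36, 95% interval 0.34 to 1.84, adjusted p = 0.69, edgeR). Klf4, Klf5 and Cebpb were the 3 of 8 factors that lay higher without overlap at 8w pw1 in Lgr5 GL, as did 6.49% of all genes tested. At no time point against 0w was any of the 8 called in Lgr5 GL, where the shares of all genes called were 1.29% at 1w, 0% at 2w, 0.155% at 4w and 0% at 8w pw1 and 0% at 1w pw2. At an unadjusted p under 0.05 there were Klf4 and Cebpb at 8w pw1 and Elf3 at 2w pw1, beside 18.6%, 8.79%, 10.7%, 5.94% and 6.42% of all genes at the 5 times in order, and DESeq2, limma-voom and the likelihood ratio test called none.

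The summed level of 20 immediate early and heat shock genes, which also respond to dissociation of tissue, was higher at these times in Lgr5 GL. In Lgr5 GL it was 2237 to 2881 CPM in 0w, 4412 to 5779 CPM in 8w pw1 and 4208 to 5987 CPM in 1w pw2. In Lrig1 GL it was 2405 to 4291 CPM in 0w, 2813 to 3812 CPM in 8w pw1 and 3520 to 4502 CPM in 1w pw2, and both later ranges overlapped 0w. The 8 factors are not in that list, and the part of the Lgr5 GL rise in the values of Klf4 and Cebpb there was not tested.

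Klf6 (ENSMUSG00000000078.7, chr13:5861482-5870394, plus strand), the injury-responsive KLF factor, had group means between 75.6 and 106 CPM up to 4w pw1 in Lrig1 GL and higher ones afterwards. It stood at 95.5, 79.6 and 92.2 CPM in 0w (89.1 ± 8.39), 73.4, 74.7 and 78.7 CPM in 4w pw1 (75.6 ± 2.74), 100, 129 and 183 CPM in 8w pw1 (137 ± 42.0) and 175, 108 and 126 CPM in 1w pw2 (136 ± 34.6). The libraries of 4w pw1 lay below those of 0w and those of 8w pw1 and 1w pw2 above them, as in 5.14%, 14.8% and 13.9% of all genes. The differences were -0.24, 0.62 and 0.62, and none was called. In Lgr5 GL it stood at 38.3, 49.4 and 35.8 CPM in 0w (41.2 ± 7.21) and 53.0, 58.1 and 55.3 CPM in 1w pw2 (55.5 ± 2.56). These did not overlap, as was so for 6.95% of all genes in the same direction, and the difference of 0.43 was not called.

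**Figure D2:**
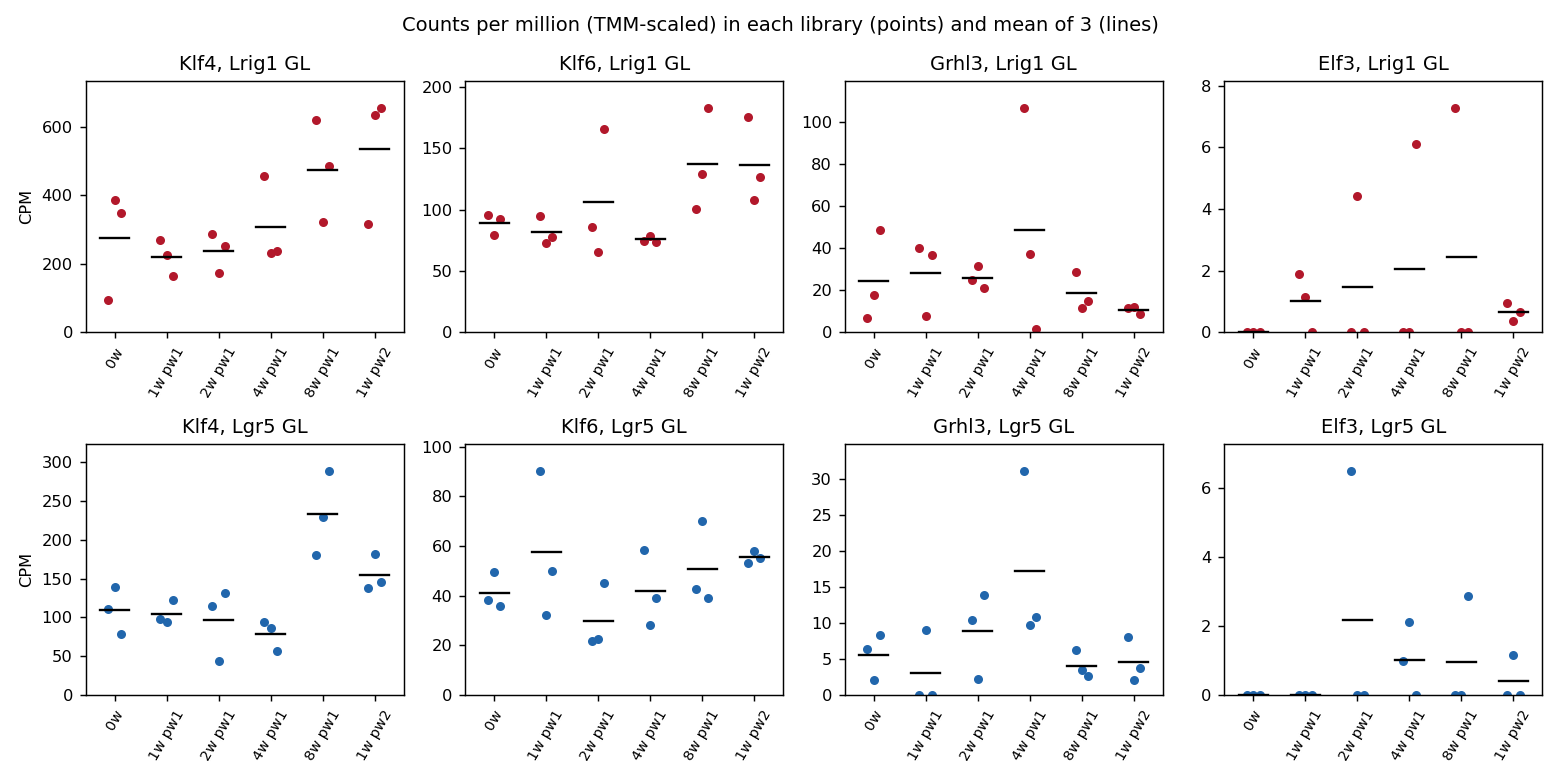
CPM (vertical axis) of Klf4, Klf6, Grhl3 and Elf3 in each library (points) by time point (horizontal axis) in both populations, with the group mean as a line and a scale of its own in each panel. Klf4 has its highest group means at 8w pw1 and 1w pw2 in both, 474 and 535 CPM in Lrig1 GL and 233 and 155 CPM in Lgr5 GL, and Elf3 is at 0 in every 0w library.

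Elf3 was scarce in these sorted cells, and Grhl3 had the next lowest mean level of the 8 in both populations. Grhl3 (ENSMUSG00000037188.7, chr4:135541888-135573630, minus strand) ranged in Lrig1 GL from 3 to 214 counts per library, with 6.67, 17.5 and 48.7 CPM in 0w, 1.53, 107 and 37.4 CPM in 4w pw1 and 11.3, 12 and 8.55 CPM in 1w pw2. The 1w pw2 libraries were close together and the 4w pw1 libraries far apart, and the differences from 0w of 1.00 and -1.18 were not called. In Lgr5 GL it ranged from 0 to 74 counts, with 6.35, 2.08 and 8.27 CPM in 0w and 31.1, 9.64 and 10.8 CPM in 4w pw1. The 4w pw1 libraries lay above those of 0w, as did 6.62% of all genes, and the difference was not called. Elf3 (ENSMUSG00000003051.13, chr1:135253575-135258568, minus strand) was at 0 in all 3 libraries of 0w in both populations, in 10 of all 18 libraries of Lrig1 GL and in 13 of 18 of Lgr5 GL. Its highest count was 20 in Lrig1 GL, at 8w pw1, and 46 in Lgr5 GL, at 2w pw1, each in a single library of its group. A count of 0 allows up to 3 counts, or 0.891 to 3.92 CPM in Lrig1 GL and 0.431 to 2.31 CPM in Lgr5 GL, a limit that covers counting error only. Exons of Elf3 share 162 of 2217 bases with Gm26642 on the other strand.

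Of 15 barrier genes known to depend on Grhl3 or Klf4, all tested, 1 was called between injured and resting libraries in Lrig1 GL and 1 in Lgr5 GL, beside 0.503% and 0.194% of all genes. The median log2 difference of the list was -0.26 in Lrig1 GL, where 6 of 15 were positive, beside -0.01 over all genes. In Lgr5 GL the median was -0.40 with 4 of 15 positive, beside -0.06 over all genes. Sprr2h, a cornified envelope precursor, was higher in injured than in resting libraries of Lrig1 GL by 6.46 on the log2 scale (adjusted p = 0.0080, edgeR), from means of 1.07 CPM in 0w and 0.536 CPM in 8w pw1 to 99.3 ± 83.9 CPM in 1w pw1 and 44.2 ± 13.8 CPM in 1w pw2. Ppl, which encodes periplakin of the cornified envelope, fell in Lgr5 GL at 1w pw1, where 1.29% of all genes were called, from 80.9 ± 27.6 to 12.9 ± 3.19 CPM (log2 difference -2.63, adjusted p = 0.014, edgeR). It was lower by 1.62 on that scale in injured than in resting libraries, and the difference was also called (adjusted p = 0.035, edgeR).

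The second wound can be set against the first at the same interval of 1 week. The 1w pw2 libraries were taken 8 weeks later after labelling, in older mice. Wound number, age and time since labelling therefore cannot be told apart in this comparison either. None of the 8 factors was called between 1w pw2 and 1w pw1 in either population (edgeR's quasi-likelihood test), where 0% of genes were called in Lrig1 GL and 0.266% in Lgr5 GL, and the 3 other tools also called none. Klf4 and Klf6 passed an unadjusted p of 0.05 in Lrig1 GL, as did 8.87% of all genes, and none did in Lgr5 GL, where 16.8% of genes passed. Klf4 was higher after the second wound in Lrig1 GL by 1.29 (SE 0.46, 95% interval 0.32 to 2.26, adjusted p = 0.44, edgeR), with all 3 libraries above all 3 of 1w pw1. Klf6 was higher by 0.74 (adjusted p = 0.56, edgeR), also without overlap, and 11.2% of all genes separated in that direction. Ets2 was lower by 0.58 on the log2 scale without overlap, as were 8.81% of genes. In Lgr5 GL, Klf4 alone separated, with a difference of 0.57 where 13.7% of genes separated upwards. Between 1w pw2 and 8w pw1 none of the 8 was called either, at an adjusted or an unadjusted p, nor with DESeq2, limma-voom or the likelihood ratio test, while 0.00699% of genes were called in Lrig1 GL and 0% in Lgr5 GL, and 5.72% and 3.83% passed the unadjusted limit.

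**Figure D3:**
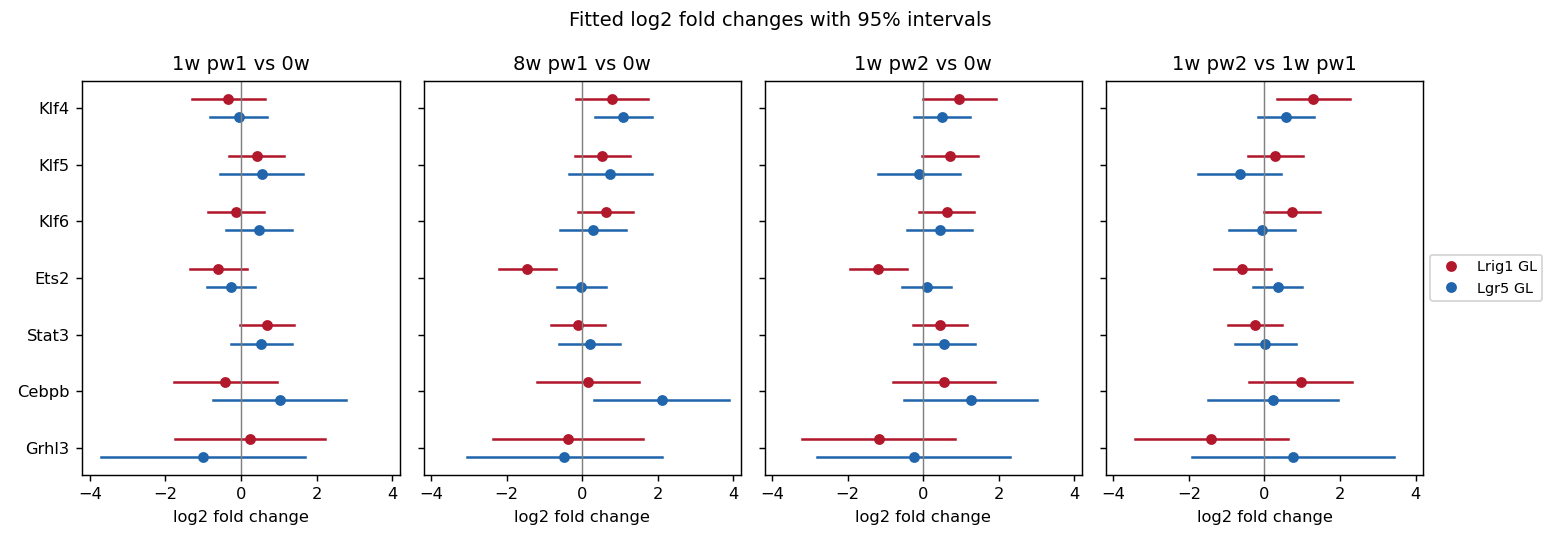
Log2 fold changes (horizontal axis) with 95% intervals for 7 of the factors in Lrig1 GL and Lgr5 GL, with 1w pw1, then 8w pw1, then 1w pw2 set against 0w and 1w pw2 set against 1w pw1, and with Elf3 not drawn. Ets2 at 8w pw1 in Lrig1 GL, at -1.45, is the one value called, and its Lgr5 counterpart is -0.02.

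Before any wound, Ets2 was the factor that separated the lineages. On the common scale its libraries stood at 150, 295 and 308 CPM in Lrig1 GL (251 ± 87.8) and at 88.4, 103 and 78.9 CPM in Lgr5 GL (90.2 ± 12.3), without overlap. The difference was 1.48 on the log2 scale (SE 0.33, 95% interval 0.80 to 2.15, adjusted p = 0.012, edgeR's quasi-likelihood test with Benjamini-Hochberg adjustment), and Ets2 was the single call among the 8 where 2.86% of 16153 genes were called and 1.1% were higher in Lrig1 GL. It was called in all 10 other settings tried (1.41 to 1.76) and without any 1 of the 36 libraries (1.34 to 1.73). Klf6 was also higher without overlap, as were 6.75% of genes, with a difference of 0.76 that was not called (adjusted p = 0.29, edgeR). Klf4 and Klf5 differed by 0.99 and 1.06 (adjusted p of 0.21 and 0.22, edgeR), and Stat3 by -0.21. The populations came from different mouse lines and were deposited in separate tables, and lineage, line and table cannot be told apart here. Whether the change from 0w differed between the lineages was tested as an interaction at each time point, and none of the 8 was called. The shares of genes called were 0.0495%, 0%, 0.0929%, 1.11% and 0.155% at 1w, 2w, 4w and 8w pw1 and at 1w pw2. Ets2 came nearest, with a difference between the lineages of -1.37 in its change at 8w pw1 (SE 0.46, 95% interval -2.32 to -0.42, adjusted p = 0.12, edgeR) and -1.25 at 1w pw2 (adjusted p = 0.26, edgeR). It was the single factor at an unadjusted p under 0.05 at both times and no other time had any, beside 15%, 9.34%, 10.5%, 17.6% and 13% of all genes at the 5 times in order. The other 3 tools called none, so the fall of Ets2 in Lrig1 GL was not shown to differ from its course in Lgr5 GL.

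**Figure D4:**
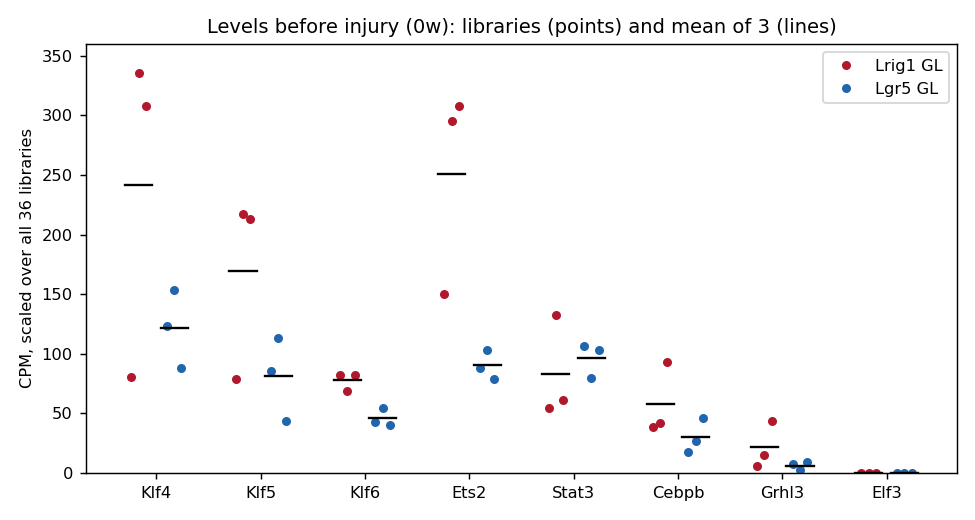
CPM at 0w on a scale common to all 36 libraries (vertical axis) for the 8 factors, with each library as a point and the mean of 3 libraries per population as a line. Ets2 stands at 150 to 308 CPM in Lrig1 GL and 78.9 to 103 CPM in Lgr5 GL.

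Per kilobase of exon, which allows levels to be compared between genes, Klf4 had the highest mean of the 8 at 0w in both populations. In Lrig1 GL its level was 90.3 ± 52.1 CPM per kb, followed by Ets2 at 49.6 ± 17, Cebpb at 43.8 ± 22.6, Klf5 at 37.2 ± 17.1, Klf6 at 20.3 ± 1.91, Stat3 at 9.96 ± 5.23 and Grhl3 at 8.70 ± 7.82 CPM per kb. Neighbours in this order lay within the sum of their SDs, other than Klf6 above Stat3 and Grhl3 above Elf3. In Lgr5 GL the order was Klf4 at 35.9 ± 9.86, Cebpb at 17.9 ± 8.64, Ets2 at 14.0 ± 1.99, Klf5 at 14.0 ± 6.17, Klf6 at 9.38 ± 1.64, Stat3 at 9.07 ± 1.31 and Grhl3 at 2.00 ± 1.14 CPM per kb. Here Stat3 above Grhl3 and Grhl3 above Elf3 were the gaps wider than that sum.

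The factors did not move as a block. Over the 18 libraries of Lrig1 GL, the 21 pairs of factors with a mean level of at least 20 CPM had a median Pearson correlation of 0.127, with 13 of them positive. They ran from -0.467 for Ets2 with Klf6 to 0.625 for Cebpb with Klf6. In Lgr5 GL, 15 pairs had a median of 0.219, from -0.222 for Klf6 with Stat3 to 0.662 for Cebpb with Klf4, and 11 were positive. The genes whose log2 CPM followed each factor most closely were ranked among 7986 genes of at least 20 CPM in Lrig1 GL and 7230 in Lgr5 GL. In Lrig1 GL these were Surf6, Cdc40 and Ppt1 for Klf5 (r of 0.875, 0.851 and 0.846) and Arrdc1, Ctsd and Ubr4 for Ets2 (0.836, 0.809 and 0.797). For Stat3 they were Rgl2, Extl3 and Ssu72 (0.813, 0.803 and 0.798), and for Cebpb Calu, Cop1 and Chd1 (0.793, 0.759 and 0.757). In Lgr5 GL they were Ly6d, Bmp7 and Lclat1 for Klf5 (0.786, 0.774 and 0.757), Kmt2b, Kidins220 and Nfkb1 for Ets2 (0.773, 0.746 and 0.730), Exosc1, Sptssa and mt-Nd4 for Stat3 (0.779, 0.737 and 0.706) and Sap30l, Cenpb and Pcbp1 for Cebpb (0.883, 0.801 and 0.785). No gene was among the closest 3 of the same factor in both populations. These correlations describe libraries that share time points and depth, and carry no test.

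Relatives of the 8 within the KLF, SP, ETS, C/EBP and Grainyhead families gave no call over time. Across the time course none of 12 tested KLF and SP relatives, 4 C/EBP relatives or 5 Grainyhead relatives was called in either population, nor were 14 ETS relatives in Lrig1 GL and 15 in Lgr5 GL (edgeR's quasi-likelihood test). At an unadjusted p under 0.05 there were 5 KLF and SP and 3 ETS relatives in Lrig1 GL and 3 KLF and SP, 4 ETS and 1 Grainyhead relatives in Lgr5 GL, with none from C/EBP, beside 20.5% and 16.9% of all genes. Between the second and the first wound the median difference was 0.22 for KLF and SP, 0.32 for ETS, -0.17 for C/EBP and -0.11 for Grainyhead relatives in Lrig1 GL, beside -0.01 over all genes tested. In Lgr5 GL the medians were 0.52, 0.56, 0.09 and 0.91 in the same order, beside 0.09 over all genes. Across the time course 1 of 20 immediate early and heat shock genes was called in Lrig1 GL (Junb, named after its values were seen) and 4 in Lgr5 GL (Jun, Ier2, Ier3 and Hspb1), beside 1.63% and 1.13% of all genes. An unadjusted p under 0.05 (edgeR) was reached by 17 of the 20 in Lgr5 GL, beside 16.9% of all genes. For Lrig1 GL the number was 9, beside 20.5%. Against 0w, 11 of the 20 passed that limit at 8w pw1 of Lgr5 GL, beside 5.94% of all genes, and none was called. Their median log2 difference there was 0.89, beside 0.01 over all genes. At 8w pw1 of Lrig1 GL 3 of the 20 were called, 2 higher and 1 lower, beside 2.82% of all genes. Jun, an AP-1 subunit, exceeded its 1w pw1 level by 2.06 on the log2 scale at 1w pw2 of Lgr5 GL (adjusted p = 0.015, edgeR).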

How the data were processed

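Mini-bulk Smart-seq2 libraries of 150 sorted cells were trimmed with Trim Galore 0.5.0 and aligned to mm10/GRCm38 with HISAT2, per the submitters' processing notes, and the deposited counts are whole reads per gene name from featureCounts over GENCODE exons, 1 table per population. No molecular identifiers were used, so limits on counts cover counting error only. From the counts, edgeR 4.0.16 in R 4.3.3 (filterByExpr with a minimum count of 10, trimmed-mean scaling, quasi-likelihood test) was fitted to the 18 libraries of each population, and to all 36 for interactions and for levels at 0w. A gene was called at a Benjamini-Hochberg adjusted p under 0.05 with an absolute log2 fold change over 1, and an interaction at the adjusted p alone. Log2 CPM values used a prior count of 2. DESeq2 1.42.0, limma 3.58.1 voom, a likelihood ratio test, surrogate variables (sva 3.50.0, a step that the study's methods also include), other scalings and filters, a replicate block and leaving out each library served as alternatives. The replicate numbers of 21 columns are not those of the GEO labels, and these libraries enter by group only. All 8 factors are given, and list genes are named where called across the time course or between injured and resting libraries, at most 4 per list by adjusted p, or else up to 2 by adjusted p. The members and lists were chosen with earlier results of these data known. The fits were run on simulated counts with the same dispersion for every gene and with changes larger than those given here for the 8 factors. Recovery of changes of the factors' size was not tested. Exon lengths and positions are from GENCODE M21 (GRCm38), and promoters from RefSeq GRCm38.p6.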

Additional observations from a re-analysis of the deposited data

How the results depend on the processing

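Across the time course, 1 factor was called in Lrig1 GL by the likelihood ratio test and by DESeq2 (Ets2), and 1 in Lgr5 GL by these and by limma-voom (Klf4), where the main test called 0. At single time points against 0w in Lrig1 GL, the count of 1 (Ets2 at 8w pw1) became 2 with the likelihood ratio test and DESeq2, through Ets2 at 1w pw2. It became 0 with DESeq2 size factors, without the filter on low counts, with the replicate block, with the GC trend removed alone or together with the block, and with surrogate variables, whether 2 or the 5 estimated. Leaving out 1 library gave 0 to 1 in Lrig1 GL and 0 to 1 in Lgr5 GL, where Grhl3 at 1w pw1 was called without replicate 2 of that group, the remaining 2 libraries being at 0 counts. The cause of these shifts was not tested. Same-numbered libraries did not deviate together (mean r of -0.00644 in Lrig1 GL and 0.00393 in Lgr5 GL), and with the replicate block Ets2 at 8w pw1 in Lrig1 GL was -1.54 (adjusted p = 0.0993, edgeR). No direction reversed, and the counts between injured and resting libraries, between the wounds, between lineages at 0w and in the interaction tests did not change under any setting run. The biological coefficient of variation was 0.66 to 0.70, and a call also required a log2 fold change over 1 in size, so differences as small as those of Stat3 (0.63) could not be called whatever their adjusted p.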
